A study of Mus musculus with 3 samples.

Results

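The autophagy machinery of the adult murine retinal pigment epithelium (RPE) was examined through 38 genes, listed by their known function in autophagosome formation, cargo capture and the control of both. A gene was included when the accession of a mouse probe mapped to its name. By this rule 35 of the 38 genes had a probe, 55 of the 35078 mouse probes on the array, and no probe was matched to Pik3r4, Atg2a or Atg4a. RNA came from the RPE of C57BL/6 mice (given as C57BL/6 J in the methods) aged 2.5 to 3 months, from sheets freed from the eyecup with trypsin. It was amplified into biotin-labelled complementary RNA and hybridised to MEEBO arrays, which carry long oligonucleotides designed from exonic evidence. There was 1 group, RPE, with 3 independent replicates on 1 array each, and no other tissue, age or treatment to set it against. Each array carried 94 negative control spots of the class mCN, so the comparison open to these data was whether a probe was brighter than those spots.

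Autophagy encloses cytoplasm in a double membrane, the autophagosome, and delivers it to lysosomes. A kinase complex around ULK1 starts the process, a lipid kinase complex around PIK3C3 marks the membrane, and a chain of conjugating enzymes attaches LC3 and GABARAP proteins to the growing membrane, where cargo receptors bind them. RPE cells do not divide in the adult eye, clear their own organelles by autophagy, and also use a part of the same conjugation machinery to place LC3 on phagosomes that hold the shed tips of photoreceptor outer segments.

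The MITF and TFEB family of transcription factors, one of which defines the RPE lineage, binds E-box sequences with the core CACGTG, and many genes of autophagy and lysosomes are known targets. Promoter windows of 300 bases (250 before the annotated start and 50 after it, RefSeq sequence of GRCm38.p6) were matched for 31 of the 38 genes and were not matched for Rb1cc1, Becn1, Pik3c3, Atg12, Atg16l1, Map1lc3a and Bnip3l. The palindromic core, searched on both strands, lay in the window of 5 of the 31 autophagy genes (16.1%), against 1559 of 17492 protein-coding genes (8.91%). The longer form TCACGTGA, which contains the core, lay in 1 of the 31 (3.23%), against 1.41% of protein-coding genes. The core itself contains a CG, and the windows of the autophagy genes were richer in CG, with a median count of 20 against 13 for protein-coding genes. The part of this base composition in the shares was not tested. The stretches that hold the core are shown because they are the sequence that these 5 genes share, each read 5′ to 3′ on the strand of its gene with the core in capitals; they run chr16:45158710-45158788 on the plus strand for Atg3, chr10:44268300-44268338 on the plus strand for Atg5, chr6:114670939-114670994 on the plus strand for Atg7, chr14:47568430-47568460 on the minus strand for Atg14 and chr7:138909584-138909639 on the minus strand for Bnip3.
Atg3: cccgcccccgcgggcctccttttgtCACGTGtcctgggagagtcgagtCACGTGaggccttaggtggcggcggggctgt
Atg5: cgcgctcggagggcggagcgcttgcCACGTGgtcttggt
Atg7: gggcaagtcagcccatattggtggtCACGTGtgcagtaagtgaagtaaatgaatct
Atg14: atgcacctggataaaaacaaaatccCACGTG
Bnip3: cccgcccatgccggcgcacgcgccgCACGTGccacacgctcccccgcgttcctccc

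Atg3 held the core 2 times, starting 94 and 71 bases before the start site, and its second copy was the longer form. The core began 14 bases before the start of Atg5, 132 before that of Atg7, 1 before that of Atg14 and 108 before that of Bnip3. As the values below show, 4 of these genes were called above the negative controls and Bnip3 was not. Over all measured autophagy genes the count called was 31 of 35 (88.6%), against 39.8% of named genes. Whether the core goes with a call was not tested. A match of letters is a description of the window and not a binding site, and binding was not measured on these arrays.

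The arrays differed in brightness, and some markers of other cells moved between them. Values are spot intensities as foreground minus local background, in scanner units, given in the order of replicates 1, 2 and 3 throughout. Over all mouse probes they averaged 830.7, 476.3 and 315.6, and the 95th percentile of the negative control spots was 132.6, 72.4 and 53.8. The scan of replicate 3 was made in another session than the other pair. All 12 RPE markers were called, and their summed intensity was 467533, 349078 and 243585. Markers of corneal epithelium stood apart: the 6 probes of Krt5, Krt12, Krt14, Krt15 and Aldh3a1 summed to 286 on replicate 1, with 0 of 6 above its threshold, and to 66441 and 84898 on replicates 2 and 3, with 6 of 6 above. Of 13 rod genes 2 were called (Rom1 and Gnat1), with 5, 6 and 9 of 16 probes above the threshold and sums of 15859, 9192 and 11213. Of red blood cell genes 3 of 5 were called, with sums of 30054, 18765 and 13940, mostly from Hba-a1 (26483, 17138 and 12461). Müller glia genes were called in 4 of 6 cases (50408, 27631 and 21558), mostly from Apoe (35260, 20031 and 12649), while Slc1a3 and Aqp4 were not called. Stromal genes were called in 2 of 7 cases (1963, 792 and 1972) and endothelial genes in 1 of 7 (718, 574 and 451). Dkk3, of the glial list, gave 3216, 1660 and 4553, and Dcn, of the stromal list, 1011, 292 and 1388. Macrophage genes had 0 of 8 probes above the threshold on any array. In such bulk RNA, fewer cells of a type and less RNA per cell cannot be told apart, and the part of these other cells in the autophagy signal was not tested. The isolation, per the methods, took away cornea, iris and retina before the RPE was detached. On replicate 1 alone, where the corneal markers were below the threshold, 31 of the 35 autophagy genes were above it (88.6%, against 45% of named genes). On replicates 2 and 3 without replicate 1 the number called was also 31, against 39.6% of named genes.

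Most genes of the autophagy machinery were detected as RNA in adult RPE, and no protein was measured on these arrays. For each probe, background-corrected and quantile-normalized log2 intensity was set against the threshold of the array (the 95th percentile over its mCN spots), and limma tested the 3 differences one-sided over all 35078 mouse probes (called at an adjusted p under 0.05). With a gene counted as detected when 1 or more of its probes were called, 31 of the 35 measured autophagy genes were detected (88.6%), against 6209 of 15597 named genes on the array (39.8%). The 4 that were not detected were Rb1cc1, Atg4c, Atg4d and Bnip3, and the same 4 had no probe above the threshold on any single array. By probes, 34 of 55 were called (61.8%), against 8931 of 35078 mouse probes (25.5%), and the median level over all 55 was 1.27 on the log2 scale above the threshold, against -0.74 over all mouse probes. With the fixed limit of the methods, a mean normalized intensity over 500, 34 autophagy probes also passed, against 24.5% of the mouse probes in the value table. These probe backgrounds include probes that matched no gene name (12007 of the 35078), whereas every autophagy probe matched one. Called shares of named probes alone are given by class below. None of the 55 was saturated.

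These shares differed with the number of probes per gene. Among genes with 1 probe, 16 of 17 autophagy genes were called (94.1%), against 33.7% of named genes. Among those with several probes, 15 of 18 had at least 1 call (83.3%), against 51.6%. Split further, 13 of 16 genes with 2 probes had a call (81.2%, against 49.1%), and so did both genes with 3 probes, Wipi1 and Wipi2 (2 of 2, against 56.9%). When all probes of such a gene had to be called, only 2 of 18 qualified (11.1%), against 11.6%, which is the share of the array as a whole and no result about the autophagy genes.

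**Figure D1:**
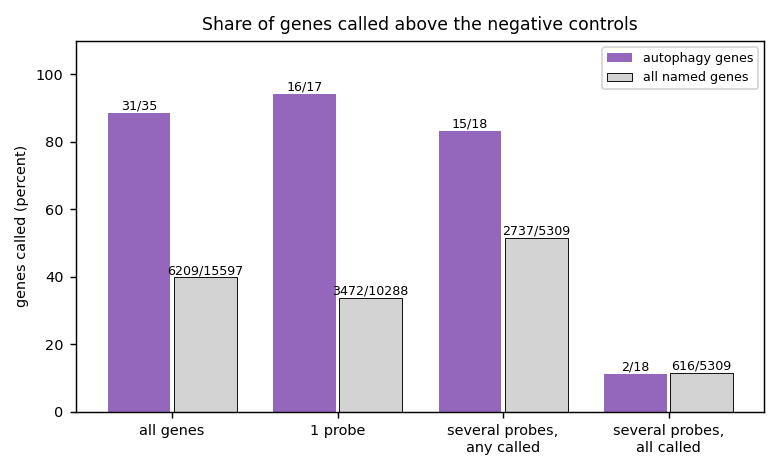
Bars give the percent of genes called above the negative controls, for autophagy genes (left bar of each pair) and all named genes (right bar), with counts above the bars. The autophagy share is higher for all genes (88.6% against 39.8%), for genes with 1 probe and for genes with any of several probes called, and close to the background when all of several probes must be called (11.1% against 11.6%).

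In the starting kinase complex, 4 of 5 genes were detected, with adjusted p between 9.23e-07 and 1.25e-04. Ulk1, the kinase that starts autophagosome formation, gave 1063, 941 and 346 and lay 2.49 ± 0.46 above the threshold on the log2 scale (SD, n = 3, as for every level that follows). Its paralogue Ulk2 gave 485, 211 and 182 on one probe (1.25 ± 0.17), while a second probe stayed below the threshold at 65, 33 and 38 (-0.45 ± 0.12). Both kinase genes were thus above the threshold of all 3 arrays, Ulk2 through 1 of its 2 probes. Atg13, the adaptor that links the kinase to its partners, was called on both probes, at 2957, 2024 and 1210 (3.87 ± 0.28) and at 2010, 1525 and 956 (3.45 ± 0.37). Atg101, which stabilises Atg13, gave 4633, 2115 and 1316, 4.14 ± 0.05 above the threshold. Rb1cc1, known as FIP200, the large scaffold of the complex, was the member not detected. Its 2 probes gave 11, 15 and 10 and 8, 3 and 14, near the medians of the negative spots (13, 12 and 14), and the scanner software did not find the spot on 1 and 2 of the arrays.

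All 5 measured genes of the lipid kinase complex were detected (adjusted p 2.85e-06 to 5.14e-04). Pik3c3, the catalytic subunit VPS34, which makes phosphatidylinositol 3-phosphate, gave 2627, 1188 and 637 (3.27 ± 0.16). Becn1, the regulatory subunit Beclin 1, gave 6632, 3155 and 1327 on one probe (4.5 ± 0.35) and 45, 29 and 22 on another (-0.68 ± 0.06). One Becn1 probe was therefore far above every array's threshold and the other below all of them. Atg14, which directs the complex to autophagosome formation, gave 1015, 693 and 411 (2.40 ± 0.24). Uvrag, the subunit of a second form of the complex that acts on endosomes and at later steps, gave 765, 520 and 392 (2.13 ± 0.32). The probes for the specific subunits of both forms were thus above the threshold of every array. Ambra1, a scaffold that ties Beclin 1 to upstream signals, was called on one probe at 578, 288 and 123 (1.27 ± 0.30), while the other gave 17, 17 and 19 and was not found as a spot on any array.

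The genes of membrane growth were detected in 4 of 4 measured cases (adjusted p 1.50e-06 to 7.23e-04). Wipi1, which binds phosphatidylinositol 3-phosphate on the nascent membrane, was called on 2 of 3 probes, at 3286, 1362 and 864 (3.58 ± 0.11) and at 400, 162 and 101 (0.84 ± 0.17), and the remaining probe gave 26, 12 and 13 (-0.95 ± 0.07). Wipi2, which binds the same lipid and brings in Atg16l1, gave 1737, 1246 and 666 on its called probe (3.13 ± 0.29). A second Wipi2 probe, at 161, 73 and 65, lay just above the threshold on all arrays without passing the test (0.12 ± 0.10, limma adjusted p 0.317), and the third gave 38, 27 and 19 (-0.75 ± 0.08). Of the 6 probes for this pair of lipid-binding proteins, 3 were called. Atg2b, a lipid transfer protein that feeds the growing membrane, gave 858, 567 and 370 (2.20 ± 0.24). Atg9a, the membrane-spanning lipid scramblase of the pathway, gave 487, 385 and 165 on its called probe (1.45 ± 0.31) and 19, 32 and 14 on the other (-0.84 ± 0.22).

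The conjugation enzymes and their proteases gave 7 detected genes of 9, with adjusted p from 1.22e-06 to 5.14e-04. Atg7, the E1-like enzyme at the head of both conjugation chains, gave 287, 170 and 119 (0.81 ± 0.11). It was above the threshold on every array by a small margin, and with the 99th percentile of the negative spots as the limit it was not called. Atg3, the E2-like enzyme that hands LC3 to its lipid, gave 2086, 608 and 396 on one probe (2.64 ± 0.38) and 104, 66 and 45 on the other (-0.14 ± 0.06). Atg10, the E2-like enzyme for Atg12, gave 1022, 401 and 321 (2.05 ± 0.16), and its other probe 68, 34 and 20 (-0.60 ± 0.19). The genes of the activating enzyme and of both E2-like enzymes were therefore called, each on 1 probe.

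Atg12, the ubiquitin-like protein joined to Atg5, gave 2929, 1279 and 859 (3.49 ± 0.04), with an SD at the low end of all autophagy probes. Atg5 itself gave 450, 267 and 117 (1.13 ± 0.25), and 16, 22 and 9 on a second probe (-0.96 ± 0.17). Atg16l1, which positions the Atg12 and Atg5 conjugate on the membrane and is also used on phagosomes, gave 2618, 1187 and 889 (3.42 ± 0.11). For each of the 3 parts of that conjugate, at least 1 probe was above the threshold on each array. Among the Atg4 proteases, which trim LC3 before conjugation and release it afterwards, Atg4b was called at 412, 287 and 177 (1.30 ± 0.21). Atg4d was not, at 124, 60 and 41 (-0.15 ± 0.10) and 97, 69 and 43 (-0.16 ± 0.10). Atg4c gave 87, 52 and 43 (-0.26 ± 0.04) on one probe and 6, 8 and 12 (-1.09 ± 0.09) on the other. Both Atg4d probes and the first Atg4c probe sat a little below the threshold on every array, and a lower limit, the 90th percentile of the negative spots, called both genes.

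**Figure D2:**
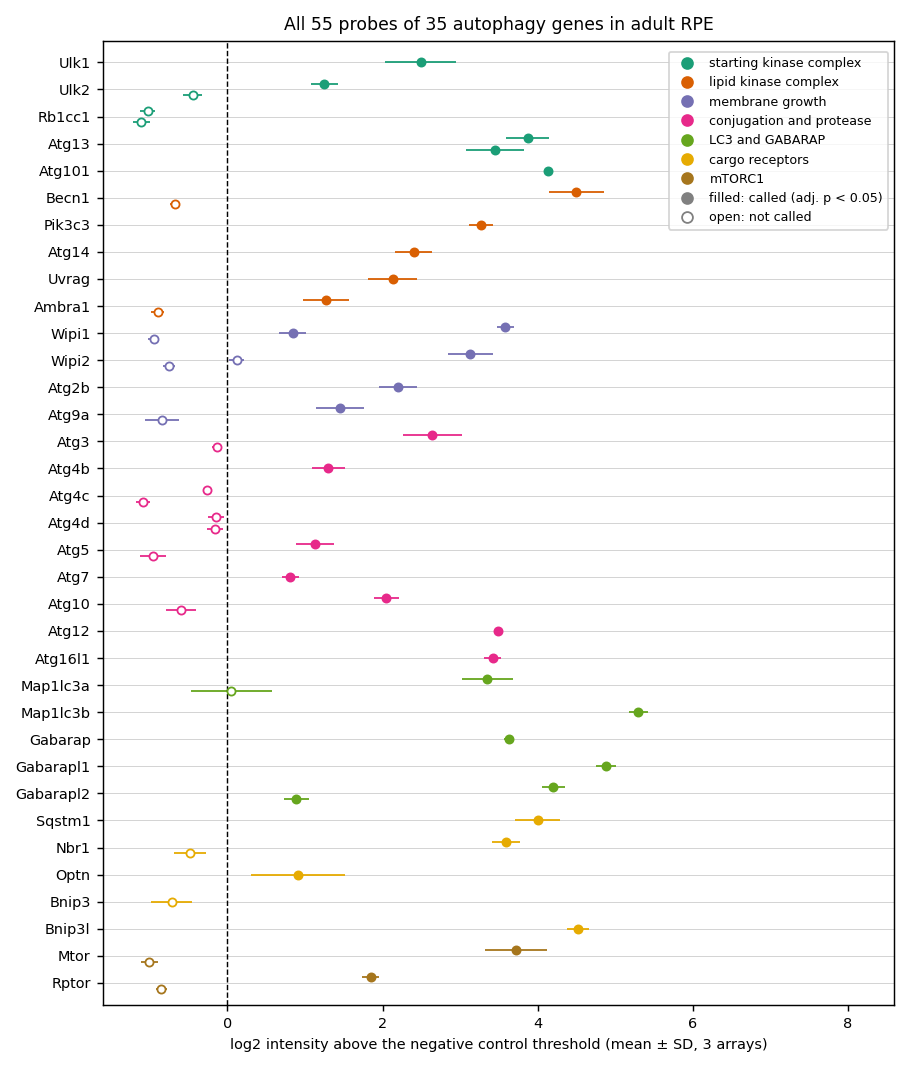
Each point is 1 of the 55 probes of the 35 measured autophagy genes, grouped by role, with the mean log2 intensity above the negative control threshold (dashed line at 0) and the SD over 3 arrays; filled points passed the limma test and open points did not. Called probes lie between 0.81 and 5.30, and 13 genes have both filled and open points.

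The genes for LC3 and GABARAP proteins, the tags that are attached to the membrane, were detected as RNA in 5 of 5 cases (limma adjusted p 8.44e-07 to 4.87e-04). Map1lc3b, which encodes LC3B, gave 8989, 5269 and 3183, 5.30 ± 0.12 above the threshold. Map1lc3a, encoding LC3A, gave 3263, 1194 and 612 on its called probe (3.35 ± 0.33). Its other probe gave 189, 113 and 29 (0.05 ± 0.52) and was above the threshold on replicates 1 and 2 but not on replicate 3. Both LC3 genes were thus called, LC3A on 1 of 2 probes. Gabarap gave 3244, 1500 and 897 (3.63 ± 0.07). Gabarapl1 gave 8049, 3255 and 2313 (4.88 ± 0.13). Gabarapl2 was called on both probes, at 4213, 2207 and 1590 (4.20 ± 0.15) and at 365, 199 and 103 (0.89 ± 0.16). The probes of the whole GABARAP branch, known for its part in autophagosome closure and fusion, were therefore above the threshold of every array.

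Genes for cargo receptors, which bridge LC3 or GABARAP and the material to be degraded, were detected in 4 of 5 cases (limma adjusted p 1.12e-06 to 0.0242). Sqstm1, the receptor p62 for ubiquitin-tagged protein, gave 5031, 1841 and 1031 (4.0 ± 0.29). Nbr1, a related receptor, gave 2689, 1632 and 902 on one probe (3.59 ± 0.18) and 95, 32 and 26 on the other (-0.48 ± 0.21). Bnip3l, the mitochondrial receptor NIX, gave 5622, 2574 and 2006 (4.52 ± 0.14). Its paralogue Bnip3 was not called, at 50, 35 and 12 (-0.72 ± 0.26), below the threshold on all 3 arrays. Of the 2 related mitophagy receptors, the probe for NIX was thus called and the probe for Bnip3 was not, and a difference in level between the 2 genes cannot be read from different probes. Optn, which links ubiquitin-tagged mitochondria and bacteria to LC3, gave 659, 155 and 78, or 1.59, 0.75 and 0.39 above the threshold, a mean of 0.91 ± 0.61 with a limma adjusted p of 0.0242. Replicate 1 carried much of that level: without it the mean was 0.49 and the call stood. Without replicate 2 the mean was 1.0 and the call was lost.

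**Figure D3:**
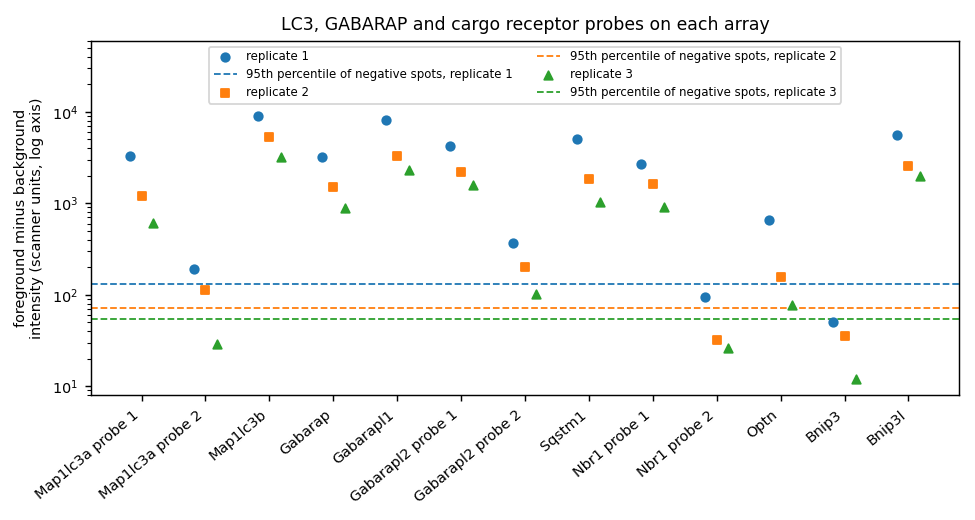
Points give foreground minus background intensity (scanner units, log axis) of each LC3, GABARAP and cargo receptor probe on replicates 1, 2 and 3, and dashed lines the 95th percentile of the negative control spots of each array (132.6, 72.4 and 53.8). Map1lc3b and Gabarapl1 stand far above all lines, Optn approaches the line of its array on replicate 3 (78 against 53.8), and Bnip3 is below the line of its array on all 3.

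Both listed genes of the kinase complex mTORC1, which holds ULK1 in check when nutrients are plentiful, were detected (limma adjusted p 1.38e-05 and 1.51e-05). Mtor, its kinase, gave 4348, 1610 and 745 on the called probe (3.72 ± 0.40) and 16, 16 and 8 on the other (-1.01 ± 0.11). Rptor, the subunit Raptor that presents substrates, gave 770, 433 and 239 (1.85 ± 0.11), and 21, 20 and 20 on its other probe (-0.85 ± 0.07). Each gene was thus called on 1 probe and below the threshold of every array on the other.

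Probes of the same gene often disagreed. Of the 18 autophagy genes with several probes, 13 had both called and uncalled ones (72.2%), against 2121 of 5309 such genes on the array (40%). A gene with no called probe cannot be split in this way. Among genes with at least 1 call, 13 of 15 autophagy genes were split, against 2121 of 2737 on the array. The part of the higher share detected in the gap between the first shares was not tested. Only Atg13 and Gabarapl2 were called on all probes, and Rb1cc1, Atg4c and Atg4d on none. By probe class, 27 of 37 mMC probes were called (73.0%, against 33.7% of named mMC probes), 6 of 9 mMR probes (66.7%, against 32.9%) and 1 of 9 mMA probes (11.1%, against 17.8%). That single mMA probe belonged to Wipi1. The mMA probes of Ambra1, Atg5, Atg10, Map1lc3a, Nbr1, Wipi2 and Mtor, and one of those of Wipi1, were uncalled beside a called probe of another class. The sources used here do not say what the classes stand for. The part of probe design in these disagreements was not tested.

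The scanner's spot flags followed the calls. None of the 34 called autophagy probes was flagged as not found on any array, as were 0.7% of called mouse probes. Of the 21 uncalled ones, 10 were flagged on at least 1 array (47.6%), against 60.7% of uncalled mouse probes. Of the 34 called probes, 18 were brighter than all 94 negative control spots on all 3 arrays, although single negative spots were bright (maxima of 1623, 729 and 265). The same share over all called mouse probes was not computed, so this count is a description only.

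Replicates varied little for most of the machinery. The median SD over the 34 called autophagy probes was 0.20 (0.04 to 0.61), against 0.22 over all called mouse probes. Only Optn, 1 of the 34 (2.9%), reached the 90th percentile of the SD over all called probes (0.46), with Ulk1 just under it. The median difference of replicate 1 from the mean of replicates 2 and 3, the pair with corneal markers, was 0.00 over the called autophagy probes and -0.01 over all called ones. Single probes ranged from -0.63 to 1.02. Optn (1.02) and Atg3 (0.66) were above both other arrays by more than 0.5 on replicate 1 (5.9% of called autophagy probes, against 3.9% of all), and one probe of Atg13 (-0.63) was below both by more than 0.5 (2.9%, against 7.4%).

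**Figure D4:**
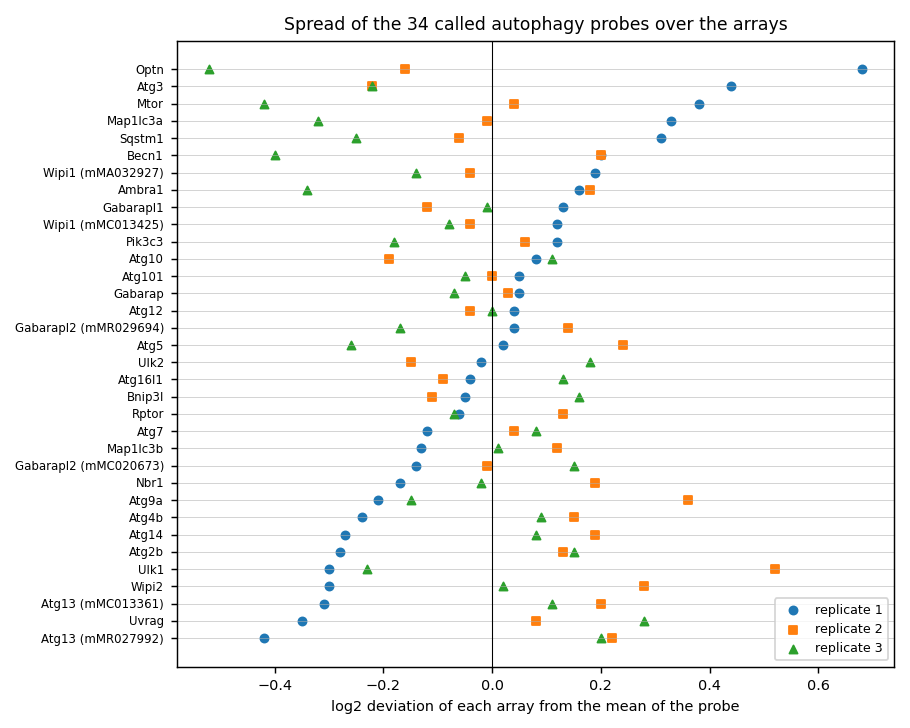
Each line is 1 of the 34 called autophagy probes and its points are the log2 deviations of replicates 1, 2 and 3 from the mean of that probe. Most points lie close to 0, and replicate 1 stands furthest to the right for Optn, at 1.02 above the mean of the other arrays.

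Beyond the 38 genes, 54 other genes of the pathway were listed from textbook knowledge, of which 45 had a probe and 34 were detected (75.6%, against 39.8% of all named genes). Among the 15 measured regulators, 11 were detected. Mitf, a regulator of autophagy and lysosome genes as well as of the RPE lineage, gave 9549, 5838 and 4266 (5.51 ± 0.23). Mlst8 and Akt1s1, partners of mTOR, gave 3366, 1732 and 855 (3.69 ± 0.19) and 2399, 1396 and 702 (3.35 ± 0.19), with a second Mlst8 probe uncalled at -0.35 ± 0.22. Bcl2, an inhibitor of Beclin 1, was called on 2 of 8 probes (2.56 ± 0.28 on the one with the largest statistic). Tfeb, the relative of Mitf best known for control of autophagy, was not called, at 30, 9 and 20 (-0.89 ± 0.13), nor were Deptor (-0.03 ± 0.25) or Bcl2l1 (-0.12 ± 0.22 on the best of 3 probes). Tfe3, another relative, was named after its values were seen and gave 236, 149 and 83 (0.55 ± 0.13, limma adjusted p 0.00274). Rubcn, known as Rubicon, which is needed for LC3 on phagosomes and restrains canonical autophagy, was also named after its values were seen and gave 666, 273 and 100 (1.23 ± 0.48, limma adjusted p 0.00315). Of the listed family members Mitf, Tfeb and Tfe3, the probes of the first and the last were thus called.

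Of the 5 measured genes for membrane growth and lipids, 4 were detected. Vmp1, a scramblase of the endoplasmic reticulum, was called on 2 of 4 probes (2.97 ± 0.06 and 0.83 ± 0.10), and the others lay at 0.00 ± 0.50 and -0.11 ± 0.53. Tmem41b, a scramblase of the same membrane, lay 1.59 ± 0.17 above the threshold on its 1 probe. Wdr45b, a lipid-binding relative of the WIPI proteins, lay 0.77 ± 0.11 above it on 1 of 4 probes, while Wdr45 did not pass at -0.00 ± 0.25. Zfyve1, a marker of the sites where autophagosomes form, was called near the limit on 1 of 2 probes (0.49 ± 0.23, limma adjusted p 0.0137), with the other at -0.35 ± 0.04.

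Cargo and mitophagy genes were detected in 8 of 12 cases. Tax1bp1, a ubiquitin-binding receptor, gave 9202, 4980 and 2807 (5.23 ± 0.10), and Fkbp8 and Phb2, mitochondrial receptors for LC3, lay 5.34 ± 0.20 and 4.35 ± 0.14 above the threshold. Tollip, an endosomal adaptor with LC3 binding, was called on 1 of 2 probes (5.19 ± 0.34). None of the 4 probes of Wdfy3, a scaffold for protein aggregates, was called, and the best of them gave 13, 21 and 9 (-0.98 ± 0.17). The same held for the 3 probes of Ncoa4, the ferritin receptor (best -0.70 ± 0.26).

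For fusion with the lysosome, 11 of 13 measured genes were detected. Lamp1 and Lamp2, the main lysosomal membrane proteins, gave 22414, 10493 and 7422 (6.48 ± 0.10) and 18447, 8150 and 5591 (6.13 ± 0.11). Vamp8, the lysosomal SNARE, gave 65474, 36871 and 17907 (8.18 ± 0.56) with a saturated spot on replicate 1, and Snap29, its partner, lay 3.95 ± 0.13 above the threshold. Stx17, the SNARE of the autophagosome, gave 240, 155 and 48 on its better probe (0.38 ± 0.44, limma adjusted p 0.15) and was not called. Vps39, a subunit of the HOPS tether, was not called either, at 49, 19 and 28 (-0.67 ± 0.14). The other measured Vps genes of the list, named after their values were seen, were Vps16, Vps18, Vps33a and Vps41. Each was called on 1 probe or more, Vps33a near the limit (0.24 ± 0.04, limma adjusted p 0.0337). Stx17 was above the threshold on replicates 1 and 2 only. Ykt6, another SNARE of the autophagosome, named after its values were seen, was called at 1970, 579 and 363 (2.56 ± 0.38, limma adjusted p 6.03e-05).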

How the data were processed

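Total RNA of 3 RPE replicates (2.5 to 3 months, 1 group) was hybridised to MEEBO arrays. The deposited scanner exports give a median foreground intensity and a median local background intensity per spot, per the file headers. The authors subtracted background, normalized by a method that no source names, and kept probes over 500. Their value table, a deposited score that the methods describe as untransformed normalized intensity, equalled foreground minus background times a constant per array (2.17, 3.64 and 5.05, on all 3 arrays), with column medians of 73.7, 98.2 and 116.2. It was used as an alternative.

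Here limma 3.58.1 in R 4.3.3 corrected background by normexp (offset 50, fitted on all spots), and mouse and negative control spots were quantile-normalized on the log2 scale. Each array's threshold was the 95th percentile of its 94 mCN spots. An intercept-only limma fit tested values above it one-sided, with Benjamini-Hochberg adjustment over 35078 probes. The number of arrays limits the precision. Probe levels were not compared between probes, which hybridise differently.

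Accessions of 23071 probes matched 1 gene name each in the RefSeq table (GRCm38.p6), none matched several and 12007 matched none, giving 15597 genes, 5309 of them with several probes. The genome build of the probes was not given in the sources used here. Promoter windows came from RefSeq. Protein sequences and probe sequences were not analysed here.

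The autophagy genes, the other pathway genes and the marker lists were chosen with earlier results of these data known. All autophagy genes were named. Of the other pathway genes, up to 4 called genes with the largest limma statistic and up to 3 uncalled genes with the lowest level were named per list. Tfe3, Rubcn, Ykt6, Vps16, Vps18, Vps33a and Vps41 were added after their values were seen, and all of them were called. The uncalled genes Sh3glb1 (0.03 ± 0.28 and -0.04 ± 0.11) and Retreg1 (0.64 ± 0.59, limma adjusted p 0.0701) fell outside the rule. The values of 1 gene that this rule picked are not reported here. Alternatives were the limit (90th and 99th percentile, median plus 3 median absolute deviations, the fixed limit of 500), the background correction (none, plain subtraction, offset 10), the normalization (none, median scaling, the value table), the rule for a gene (more than 50% or all of its probes called, or above the threshold on all 3 arrays without a model) and leaving out each replicate. Replicate 1 alone was added after the data were seen.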

Additional observations from a re-analysis of the deposited data

How the results depend on the processing

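The rule for a gene changed the counts most. Counting a gene as detected only with over 50% of its probes called, 19 autophagy genes and 22 other pathway genes were detected, and 18 and 21 under a rule that asked for all probes, against 31 and 34 in the report. The share of all named genes fell with them, to 27.7% and 26.2%. With the 99th percentile of the negative spots as the limit, Ulk2, Ambra1, Atg5, Atg7 and Optn were not called (26 of 35, against 30.3% of all genes), and the level of Atg7 turned to -0.02. With the 90th percentile or the median plus 3 median absolute deviations, 33 were called, with Atg4c and Atg4d added, against 53.7% and 49.4% of all genes. The value table gave 30, without Optn. The other alternatives to background correction, normalization and limit gave 31. Over the alternatives that kept the rule for a gene, other pathway genes detected ran between 25 (99th percentile) and 40 (90th percentile). Leaving out 1 replicate gave 30 to 31 autophagy genes, 31 to 33 other pathway genes and 33 to 35 autophagy probes, and Optn was the autophagy gene that lost its call, without replicate 2. Of the 31 genes, 26 were detected under every alternative other than the 2 rules on probes, and 16 under every alternative. No paired analysis was possible because there was 1 group. A gene listed as not called may be transcribed below what its probe can show over the negative spots, and 3 genes had no probe.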
